A study of Mus musculus with 8 samples.

Results

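The mitochondrial ribosomal protein genes were taken as every row of the count table whose symbol begins with Mrpl or Mrps followed by a digit, which gave 78 of 21983 genes, 49 Mrpl and 29 Mrps. They were followed in RNA-seq gene counts from 8 libraries of AML-12 cells, an established line of mouse hepatocytes that carried the wild-type label in both groups. In the 4 overexpression libraries the cells overexpressed Gm47544, a long non-coding RNA gene that the series title ties to ubiquitination of the apolipoprotein APOC3. The 4 control libraries came from cells with pLKO.1, a lentiviral backbone vector. The titles name no vector for the overexpression libraries and no time of expression, and Gm47544 itself was not analysed here, so the overexpression was not checked in these counts. Nothing in the labels ties the libraries to separate cultures, so the p-values reflect library-to-library spread that could be purely technical.

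Mitochondria keep their own ribosome, which makes the hydrophobic core subunits of the respiratory chain that the mitochondrial genome encodes. Its RNAs are transcribed inside the organelle, while all of its proteins are encoded in the nucleus, translated in the cytosol and imported. Proteins named Mrpl belong to the large subunit, which forms peptide bonds and holds the exit tunnel. Proteins named Mrps were assigned to the small subunit, which binds the mRNA and reads its codons. Part of each subunit descends from bacterial ribosomal proteins, and part is found only in mitochondrial ribosomes. Hepatocytes are rich in mitochondria and rely on them for fatty acid oxidation, urea synthesis and ATP.

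Library totals lay between 11016907 and 17338310 counts in overexpression libraries and between 12256376 and 18965662 in control libraries. The first principal component of the 11520 genes that passed the count filter held 82.5% of the variance and separated the groups. Control library 3 lay at -22.2 on it, between the other controls at -60.7 to -50.0 and the overexpression libraries at 43.4 to 50.4. It was nearer to the other controls. Of 12 listed hepatocyte markers 11 were in the table, none of them at 0 throughout. Their sum ranged from 4373 to 4799 CPM (normalised counts, scaled to a common library size) in overexpression libraries. In controls it ranged from 4581 to 7135 CPM. Of the 9 that passed the count filter, 5 were called lower and 2 higher by the edgeR test described below. The shares of all tested genes were 32.1% and 32.3%. A sum can rest on a few abundant genes, so it does not settle the identity of the cells. Summed cholangiocyte markers, all 5 in the table, ranged from 4475 to 5076 CPM in overexpression libraries and from 2788 to 4139 CPM in controls. Stellate cell or fibroblast markers summed to 9.86 to 17.4 CPM in overexpression libraries and 3.56 to 5.47 CPM in controls, with Col1a2, Col3a1 and Lrat at 0 among 7 genes. The 5 endothelial markers, none of them at 0 throughout, summed to 1.37 to 2.18 CPM in overexpression libraries and 0.0625 to 0.536 CPM in controls. Macrophage markers summed to 9.94 to 13.2 CPM in overexpression libraries and 26.7 to 32.6 CPM in controls, with Adgre1 and Clec4f at 0 among 5 genes. The part of these differences in the results was not tested, and in bulk RNA fewer cells of a type and less RNA per cell cannot be told apart.

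Mitochondrial ribosomal protein transcripts were lower in Gm47544-overexpressing cells almost throughout the family. Of 75 members that passed the count filter, 68 fell, 1 rose (Mrpl1) and 6 were not called by the quasi-likelihood test of edgeR, with p-values adjusted over all genes by the Benjamini-Hochberg method and a threshold of 0.05. Against this, 32.1% of the 11520 tested genes fell and 32.3% rose, 64.4% in all. The median log2 fold change of the tested members was -0.78, which is 1.72-fold lower, with quartiles of -1.16 and -0.58, whereas the median of all tested genes was 0.00041. Mitoribosomal protein mRNAs are short, and with a trend on length removed the median was -0.51 or -0.34, with 51 or 46 members lower, depending on how length was measured. A fall of at least 2-fold was called for 27 members, and for 9.02% of all tested genes. The overexpression values lay below every control value for 66 members, and for 27.5% of tested genes, and above every control value for 1 member, and for 28.5% of tested genes. Scaling by library totals alone, which shifted the median of all genes by 0.128, gave 63 members lower, against 26.6% of tested genes, and 2 higher, against 37.4%. Among the members called lower, Mrpl28 and Mrpl40 were those whose groups overlapped.

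Summed over all members, the family took 0.307, 0.302, 0.293 and 0.293% of counts in overexpression libraries 1 to 4 and 0.545, 0.500, 0.417 and 0.550% in control libraries 1 to 4. The overexpression libraries lay close together at 0.299 ± 0.00692% and below all controls, which averaged 0.503 ± 0.0614% (SD, n = 4 each). Control library 3 was the lowest control here and also for 56 of the 75 tested members one by one. With that library left out, 69 members were called lower, with median log2 fold changes of -0.91 for Mrpl and -1.05 for Mrps genes, and 9001 genes were called over the whole table in place of 7417.

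**Figure D1:**
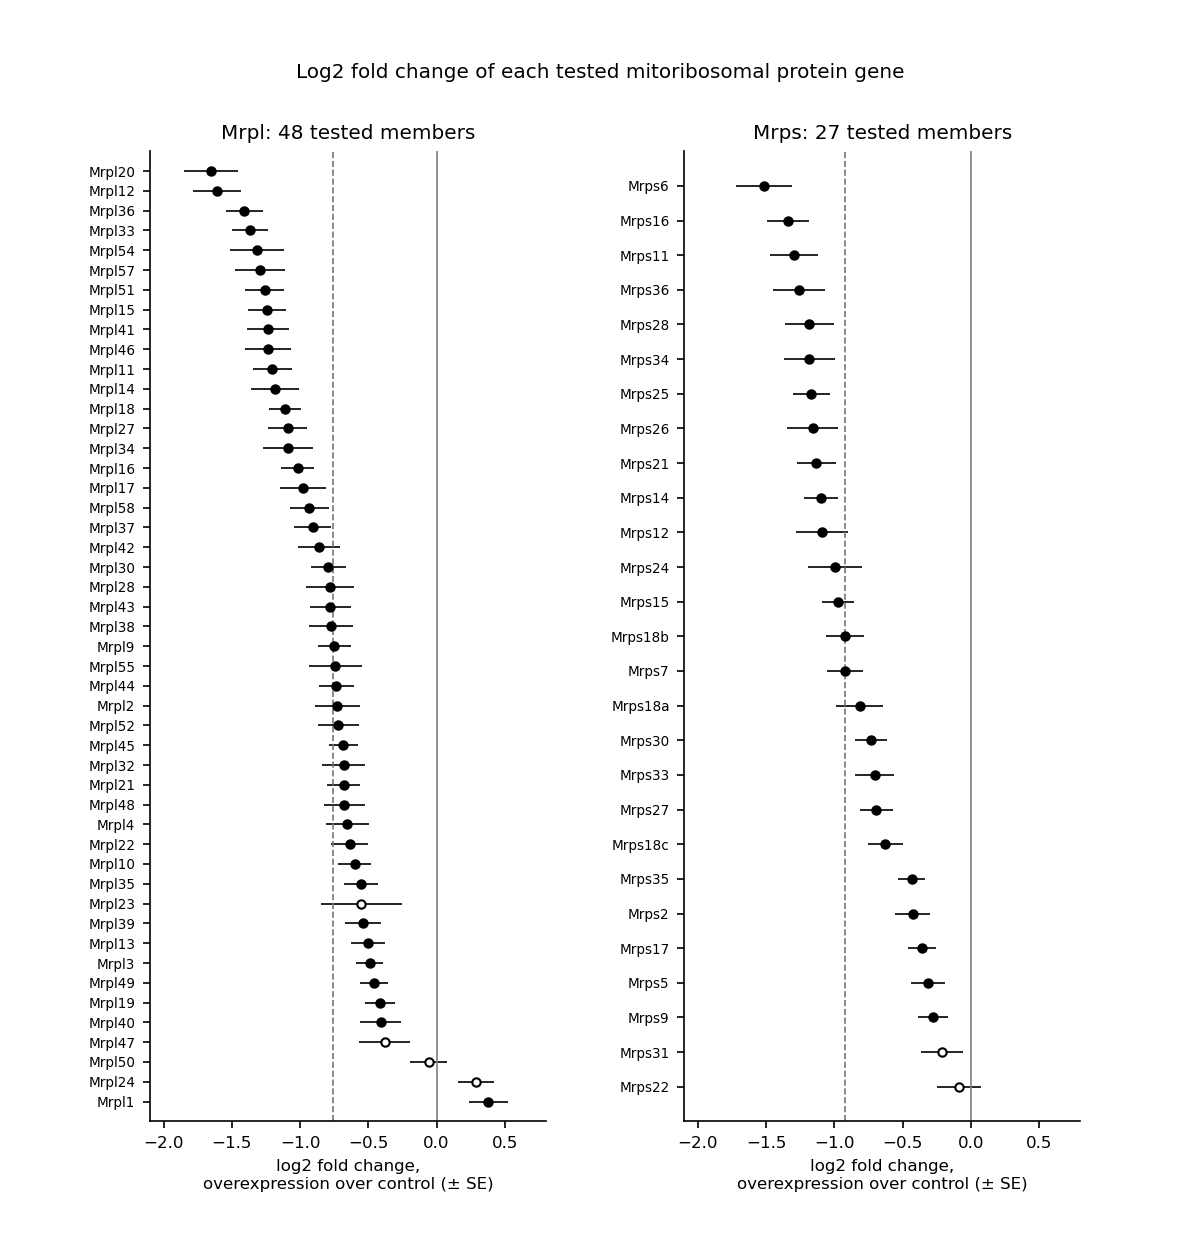
Log2 fold change (horizontal axis, overexpression over control, bars are SE) of each tested mitochondrial ribosomal protein gene, with 48 Mrpl genes in 1 panel and 27 Mrps genes in the other. Values run from -1.65 for Mrpl20 to 0.38 for Mrpl1, and 73 of the 75 lie below 0.

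The large and small subunit genes were then set against each other. Among 48 tested Mrpl genes 43 fell, 1 rose and 4 were not called, 16 fell at least 2-fold, and the median log2 fold change was -0.76 (1.69-fold lower). Among 27 tested Mrps genes 25 fell, none rose and 2 were not called, 11 fell at least 2-fold, and the median was -0.92 (1.90-fold lower). The order of the medians turned with a trend on GC content removed, to -0.82 for Mrpl and -0.80 for Mrps genes, and the difference between the subunits was not tested. Mrpl genes took 0.214 ± 0.00528% of counts in overexpression libraries and 0.359 ± 0.0443% in controls, and Mrps genes took 0.0847 ± 0.0017% in overexpression libraries and 0.144 ± 0.0172% in controls (SD, n = 4 each). The ratio of summed Mrpl to summed Mrps counts was 2.53, 2.55, 2.52 and 2.50 in overexpression libraries 1 to 4 and 2.53, 2.51, 2.48 and 2.48 in control libraries 1 to 4. These values overlapped between the groups, with means of 2.53 ± 0.0208 in overexpression libraries and 2.50 ± 0.0243 in controls, so the counts of both subunits were lower by nearly the same factor.

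**Figure D2:**
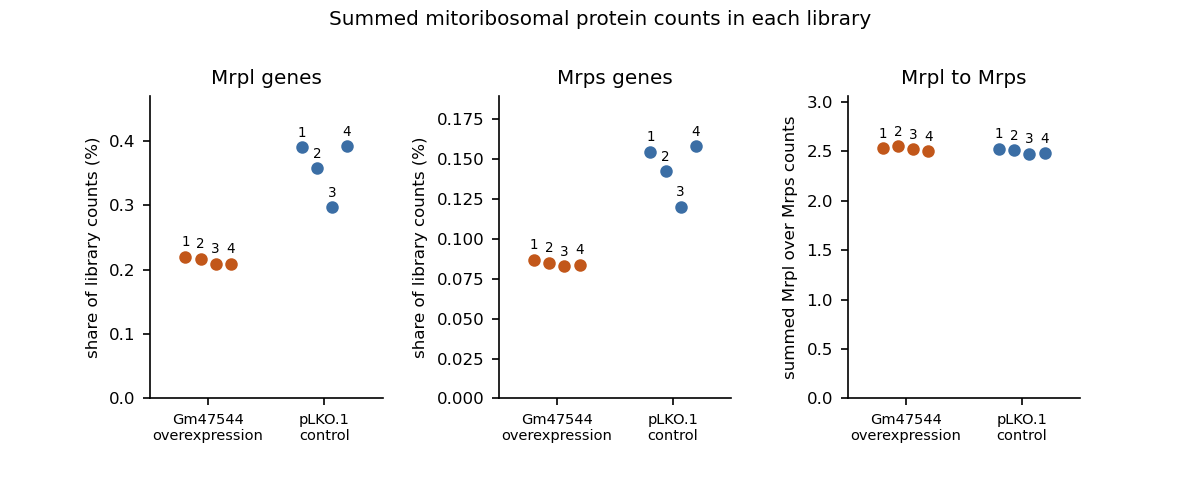
Share of library counts (%) on Mrpl genes and on Mrps genes, and the ratio of summed Mrpl to summed Mrps counts, with 1 point per library numbered 1 to 4 and overexpression libraries left of controls. Both shares are lower in each overexpression library than in each control, while the ratio stays between 2.48 and 2.55 in all 8 libraries.

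The names do not follow the place of every protein. Mrps18a and Mrps30 are built into the large subunit despite their names, and Mrps36 is now counted as a subunit of the 2-oxoglutarate dehydrogenase complex. Sorted by place, 45 of 50 large-subunit genes fell with a median log2 fold change of -0.76, and 22 of 24 small-subunit genes fell with a median of -0.95. Sorted by descent, 39 of 43 tested members with a bacterial homologue fell, with a median of -0.79, and 23 of 26 without one fell, with a median of -0.75. All 14 Mrps genes with a bacterial homologue fell (median -0.99), against 6 of 8 without one (median -0.70), 25 of 29 Mrpl genes with one (median -0.75) and 17 of 18 Mrpl genes without one (median -0.78). These orders did not hold under every correction. With the length trend removed 11 of the 14 Mrps genes with a bacterial homologue fell (median -0.49), against a median of -0.52 in those without one, with the GC trend removed the medians were -0.73 and -0.83, and with both removed 9 of 14 fell and the medians were -0.48 and -0.51. By place, the medians with the GC trend removed were -0.82 for the large and -0.78 for the small subunit. The lists by descent were drawn up by hand, 6 members were left out of them, and differences between these lists were not tested.

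The Mrpl genes with the smallest adjusted p among those lower were Mrpl36, Mrpl33, Mrpl18, Mrpl12, Mrpl15 and Mrpl51. Mrpl12 (chr11:120484613-120489065, plus strand) encodes the homologue of the bacterial L7/L12 stalk protein, which recruits translation factors to the large subunit. It had 92.3, 87.8, 91.4 and 89.0 CPM in overexpression libraries and 326, 245, 182 and 349.6 CPM in controls. Its overexpression libraries were nearly level while the controls spread widely, with library 3 the lowest, and the groups did not overlap. The means were 90.1 ± 2.09 CPM in overexpression libraries and 276 ± 76.9 CPM in controls (SD, n = 4 each), a log2 fold change of -1.61 (SE 0.18, edgeR adjusted p = 9.61e-06).

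Mrpl33 (chr5:31596935-31664384, plus strand) and Mrpl36 (chr13:73328513-73332178, plus strand) encode homologues of small proteins of the bacterial large subunit. Mrpl33 had 56.2, 57.4, 59.9 and 57.7 CPM in overexpression libraries and 177, 147, 115 and 159 CPM in controls (log2 fold change -1.37, SE 0.13, edgeR adjusted p = 3.95e-06). For Mrpl36 the values were 35.2, 32.9, 34.7 and 32.3 CPM in overexpression libraries and 101, 83.8, 70.3 and 104 CPM in controls (log2 fold change -1.41, SE 0.14, edgeR adjusted p = 3.87e-06). Both were lower in every overexpression library than in any control, by 2.59-fold and 2.66-fold in the fit. Mrpl15, the homologue of a core protein of the bacterial large subunit, had 42.2, 40.7, 39.2 and 40.4 CPM in overexpression libraries and 106, 95.8, 71.8 and 111 CPM in controls (log2 fold change -1.24, edgeR adjusted p = 1.04e-05). Mrpl18, whose bacterial homologue binds the small ribosomal RNA of the large subunit, averaged 37.6 ± 2.49 CPM in overexpression libraries and 81.1 ± 8.88 CPM in controls (SD, n = 4 each; log2 fold change -1.11). Mrpl51, a protein with no bacterial homologue, had 40.0, 45.4, 42.8 and 38.7 CPM in overexpression libraries and 114, 96.4, 74.7 and 115 CPM in controls (log2 fold change -1.26). The groups of these 3 genes did not overlap either.

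Among the Mrps genes the smallest adjusted p belonged to Mrps16, Mrps14, Mrps25, Mrps15, Mrps21 and Mrps11. Mrps16 (chr14:20389304-20393634, minus strand), a core protein of the small subunit whose mutation in humans causes a respiratory chain disorder, had 18.9, 17.9, 16.9 and 16.5 CPM in overexpression libraries and 46.8, 45.6, 32.1 and 53.0 CPM in controls (log2 fold change -1.34, SE 0.15, edgeR adjusted p = 1.40e-05). Mrps11 (chr7:78783119-78792989, plus strand), a protein of the platform that faces the mRNA exit in bacteria, had 21.3, 19.8, 20.3 and 19.1 CPM in overexpression libraries and 55.6, 47.6, 32.9 and 62.0 CPM in controls (log2 fold change -1.30, SE 0.17, edgeR adjusted p = 4.38e-05). In both genes the lowest control was library 3, and it still lay above the highest overexpression library. Mrps14 had 35.1, 30.7, 36.8 and 31.9 CPM in overexpression libraries and 84.2, 72.2, 60.5 and 71.1 CPM in controls (log2 fold change -1.10). Mrps15 and Mrps21, both homologues of bacterial small-subunit proteins, had log2 fold changes of -0.98 and -1.13. For Mrps15 the values were 28.5 ± 1.55 CPM in overexpression libraries and 56.0 ± 6.08 CPM in controls, and for Mrps21 they were 51.9 ± 1.54 CPM in overexpression libraries and 114 ± 23.9 CPM in controls (SD, n = 4 each).

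Mrps25 (chr6:92169525-92184033, minus strand), a small-subunit protein of mitochondrial ribosomes alone, had 38.1, 37.0, 34.7 and 39.6 CPM in overexpression libraries and 91.9, 83.2, 63.9 and 97 CPM in controls (log2 fold change -1.17, edgeR adjusted p = 1.59e-05). Of its exonic bases 69.8% overlap Nr2c2. No source used here gives the strand setting of the counting, so reads from that overlap may have been left out or counted for the other gene. Mrpl20 and Mrps6, outside the naming rule and picked after their values were seen, had the lowest log2 fold change among Mrpl and among Mrps genes. Mrpl20, a homologue of a bacterial assembly protein, had 34.7, 32, 28.9 and 26.4 CPM in overexpression libraries and 118, 87.3, 59.2 and 119 CPM in controls (log2 fold change -1.65). Mrps6 had 49.7, 34.4, 26.2 and 30.1 CPM in overexpression libraries and 117, 89.7, 75 and 120.1 CPM in controls (log2 fold change -1.52), with more spread among overexpression libraries than the other genes above.

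**Figure D3:**
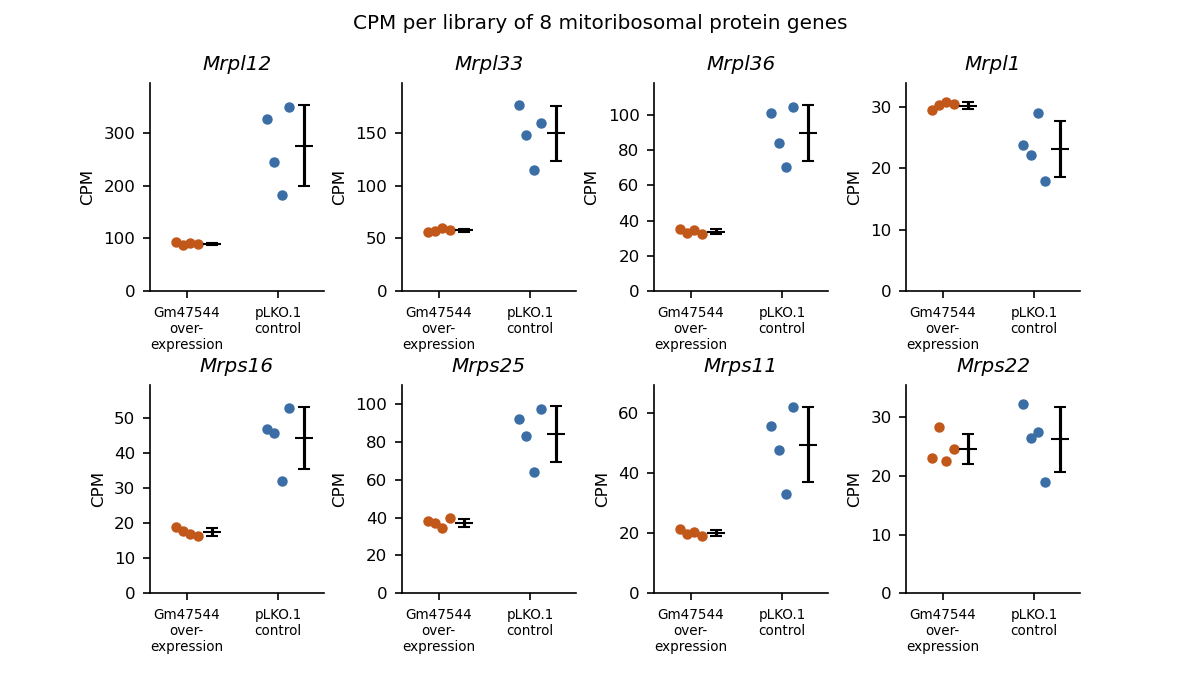
CPM per library of 4 Mrpl genes (Mrpl12, Mrpl33, Mrpl36 and Mrpl1) and 4 Mrps genes (Mrps16, Mrps25, Mrps11 and Mrps22), with 1 point per library, overexpression left of control, and bars for the mean ± SD (n = 4 each). Overexpression points lie below all controls for 6 of the genes, above all controls for Mrpl1 and among them for Mrps22.

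Members with a separate role were called lower as well before any trend was removed. With the mRNA length trend removed, Mrps18a, Mrps18c and Mrps36 were not called, while Mrps18b, Mrps30 and Mrpl58 were still called lower. Mrps18a, Mrps18b and Mrps18c are 3 related proteins that sit at different places of the mammalian mitochondrial ribosome, Mrps18a in the large subunit. Mrps18a averaged 32.7 ± 0.833 CPM in overexpression libraries and 57.5 ± 15.1 CPM in controls (log2 fold change -0.81, edgeR adjusted p = 0.00124). Mrps18b averaged 30.4 ± 2.14 CPM in overexpression libraries and 57.8 ± 10.2 CPM in controls (log2 fold change -0.92), and Mrps18c 20.7 ± 0.569 CPM in overexpression libraries and 32 ± 4.71 CPM in controls (log2 fold change -0.63, edgeR adjusted p = 0.00102). All 3 fell, and of these Mrps18b and Mrps18c share 30.5% and 23.2% of their exonic bases with other genes. Mrps30, the large-subunit protein under an Mrps name, averaged 22.6 ± 1.43 CPM in overexpression libraries and 37.6 ± 3.27 CPM in controls (log2 fold change -0.73). Mrps36 averaged 4.24 ± 0.729 CPM in overexpression libraries and 10.1 ± 1.90 CPM in controls (log2 fold change -1.26). Mrpl58, also known as ICT1, is a large-subunit protein with peptidyl-tRNA hydrolase activity that frees stalled ribosomes, and it averaged 40.6 ± 2.04 CPM in overexpression libraries and 77.5 ± 15.6 CPM in controls (log2 fold change -0.93; SD, n = 4 each for all of these).

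Mrpl1 was the single member called higher. It encodes the homologue of the bacterial stalk protein next to the tRNA exit site, and lies on chr5:96209493-96266727 (plus strand). Its values were 29.5, 30.3, 30.8 and 30.5 CPM in overexpression libraries and 23.8, 22.1, 29.0 and 18.0 CPM in controls. Every overexpression library lay above every control, by 0.38 on the log2 scale in the fit (SE 0.14, edgeR adjusted p = 0.0325). The call held in 9 of 20 alternative settings, was lost when any 1 library other than control library 3 was left out, with log2 fold changes between 0.27 and 0.39, and with a trend on GC content removed the value was -0.02 (adjusted p = 0.835).

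The 6 tested members that were not called were Mrpl23, Mrpl24, Mrpl47, Mrpl50, Mrps22 and Mrps31. Mrpl50, found only in mitochondrial ribosomes, was the nearest to 0 among Mrpl genes, with 81.4, 90.3, 83.7 and 85.0 CPM in overexpression libraries and 93.1, 91.3, 104 and 65.2 CPM in controls (log2 fold change -0.06, edgeR adjusted p = 0.729). Mrps22, also without a bacterial homologue and mutated in human respiratory chain disease, had 23.1, 28.3, 22.6 and 24.6 CPM in overexpression libraries and 32.2, 26.4, 27.4 and 18.9 CPM in controls (log2 fold change -0.09, edgeR adjusted p = 0.643). The controls of both genes ran on either side of the overexpression libraries. Mrps31, another protein of that kind, averaged 27.7 ± 1.05 CPM in overexpression libraries and 32.1 ± 6.90 CPM in controls (SD, n = 4 each; log2 fold change -0.21, edgeR adjusted p = 0.236). Mrpl24, the homologue of a bacterial protein that starts assembly of the large subunit, had 21.3, 21.6, 19.4 and 17.1 CPM in overexpression libraries and 15, 15.3, 16.1 and 18.7 CPM in controls (log2 fold change 0.29, edgeR adjusted p = 0.0723). It was called higher in 7 of 20 alternatives, and 26.3% of its exonic bases overlap Rrnad1. Mrpl47 (log2 fold change -0.38, edgeR adjusted p = 0.0880) shares 24.2% of its exonic bases with other genes. Mrpl23, whose bacterial homologue lies at the exit of the peptide tunnel, had 135 counts over the overexpression libraries and 202 over the controls, the fewest of any tested member (log2 fold change -0.55, SE 0.30, edgeR adjusted p = 0.120).

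Another 3 members failed the count filter. Mrpl53 and Mrps10 had 0 counts in all 8 libraries, and Mrps23 had 1 count, in control library 2. Overlap with other genes covers 88% of the exonic bases of Mrpl53, and a read that overlaps more than 1 gene may be left out of a gene's count. For Mrps10 and Mrps23 the overlap was 0%. Whether these 3 genes were unexpressed or uncounted was not tested.

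Levels were compared between members only per kilobase of mRNA, with the longest protein-coding transcript of each gene as its length. On that scale the median tested member stood at 33.0 CPM per kb over the 8 libraries, against 12.2 for all tested genes. The highest was Mrpl33, at 121 CPM per kb in overexpression libraries and 313 in controls, and the lowest was Mrpl48, at 2.31 CPM per kb in overexpression libraries and 3.71 in controls. With the union of all exons as the length, Mrpl34, the homologue of a very short bacterial protein, was highest and Mrpl23 lowest, so the order rests on which transcripts are counted. Mrpl34 had 74.9, 66.3, 60.9 and 65 CPM in overexpression libraries and 169, 125, 92.2 and 183 CPM in controls (log2 fold change -1.09, edgeR adjusted p = 2.43e-04).

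Transcript length moved with the fold change across the whole table. Tested members had a median mRNA length of 1316 bases, against 3114.5 bases in the 11474 tested genes with a known mRNA, while their median GC content was 49.7%, against 49.7% in tested genes. Of all tested genes with an mRNA under 1500 bases, 1569 in number, 67.5% fell, with a median log2 fold change of -0.67. The members below that length fell in 41 of 44 cases, with a median of -0.91. Of the 9905 tested genes with an mRNA of 1500 bases or more, 26.5% fell, with a median of 0.10. The longer members fell in 27 of 31 cases, with a median of -0.68. Across tested members, log2 fold change and mRNA length had a Spearman rho of 0.36, and across all tested genes it was 0.45. Both are descriptions over genes that share the same libraries.

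Most tested members were still called lower once a trend on length was removed. With the trend on exon length removed, 51 members fell, against 31.1% of tested genes, and 2 rose (Mrpl1 and Mrpl24), against 29.4%. The median log2 fold change was then -0.46 for Mrpl and -0.51 for Mrps genes. With the trend on mRNA length removed, an alternative added after seeing the data, 46 fell, against 30.8% of tested genes, and 3 rose (Mrpl24, Mrpl52 and Mrps22), against 28.7%. The medians were then -0.30 for Mrpl and -0.38 for Mrps genes, and the longer members had a median of -0.68 with 26 of 31 lower, while the shorter ones had a median of -0.26 with 20 of 44 lower. With length and GC trends removed together, 47 fell, against 34% of tested genes, and 3 rose (Mrpl2, Mrpl24 and Mrpl40), against 34.5%, while with the GC trend alone removed 70 fell, against 35.6%, and 1 rose (Mrpl24), against 35.8%. In all, 40 members (24 Mrpl and 16 Mrps) were called lower also under both length corrections. The matching share of all tested genes was not worked out. It can be no more than the 30.8% that were lower with the mRNA length trend removed.

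Single genes differed in how far length bore on them. The mRNA length is again that of the longest protein-coding transcript of each gene, and which transcripts these cells used was not tested. Mrpl15, with an mRNA of 4203 bases, had a log2 fold change of -1.47 after the mRNA length correction and -1.24 before it, and Mrps25, with 6073 bases, had -1.64 after and -1.17 before. Mrpl12 had -1.07 after and -1.61 before. Mrps21, with 488 bases, had -0.05 (adjusted p = 0.661) and Mrps18a, with 884 bases, had -0.03 (adjusted p = 0.808). Mrps36 had -0.38 (adjusted p = 0.0764), and Mrps22, not called before, had 0.47 (adjusted p = 0.0299). Under the exon-length and the mRNA-length correction, Mrpl34 had -0.08 and -0.10 and Mrps18c had 0.10 and 0.17, none of them called. Mrpl33, with 478 bases of mRNA but 7326 bases in its exon union, had -1.67 under the exon-length correction and -0.28 under the mRNA-length correction, since it counts as long by 1 measure and as short by the other. RNA integrity and fragment size were not measured in these files, and the part of length in the results was not separated further.

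**Figure D4:**
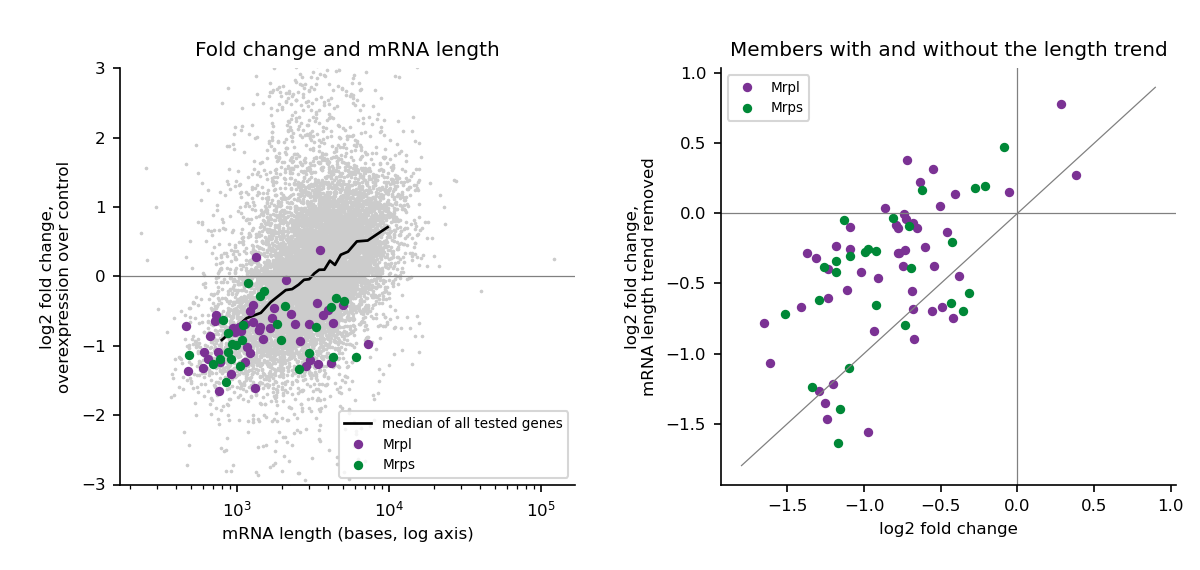
Left, log2 fold change (overexpression over control) against mRNA length in bases on a log axis, with all tested genes in grey, their median over 20 groups of equal number as a line, and Mrpl and Mrps genes as coloured points; 145 genes beyond 3 in size are not drawn. Right, log2 fold change of each member with the mRNA length trend removed (vertical) against the value without that correction, with the grey diagonal marking equality; the shorter members move up towards 0, and the median goes to -0.34.

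The start regions of members were read as a further feature that the choice of genes did not use. RefSeq promoter windows of GRCm38.p6 (250 bases before to 50 after the start) were matched by symbol for 69 members and 9095 tested genes. The ETS core CCGGAAG, on either strand, stood in 26 members (37.7%), against 20.9% of tested genes and 9.93% of all 27025 genes with a window. The YY1 motif AAGATGGC stood in 12 (17.4%), against 5.52% of tested genes and 3.19% of all genes with a window. The NRF1 half-site GCATGCGC stood in 8 (11.6%), against 6.09% and 3.05%. The SP1 core GGGCGG stood in 34 (49.3%), against 69.1% and 38.2%. The E-box CACGTG stood in 5 (7.25%), against 11.8% and 8.09%, and the CRE TGACGTCA in 2 (2.90%), against 3.80% and 2.03%. These are letter matches, not binding sites, and the ETS core and the YY1 motif can share letters where they abut. The median log2 fold change of members with and without each motif was -0.93 and -0.74 for the ETS core, -0.88 and -0.76 for the YY1 motif, -0.91 and -0.74 for the SP1 core and -0.91 and -0.78 for the E-box. For the NRF1 half-site it was -0.71 with and -0.80 without, and for the CRE -0.74 with and -0.79 without, so the order of these medians differed between motifs.

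Windows of 4 named members are shown, each 5′ to 3′ on the plus strand of GRCm38.p6 from 250 bases before to 30 after the RefSeq start, to set 3 genes that fell and hold different motifs beside the gene that rose. Mrpl33 (chr5:31613701-31613980) holds the NRF1 half-site on the minus strand and the ETS core. Mrps18a (chr17:46110754-46111033) holds the ETS core before the start and the YY1 motif after it. Mrps11 (chr7:78782881-78783160) holds the YY1 motif on the minus strand, in a start region it shares with Mrpl46, and the SP1 core. Mrpl1 (chr5:96209865-96210144) holds the SP1 core alone, at 2 places on the minus strand. Capitals mark those matches as they read on the plus strand.
Mrpl33: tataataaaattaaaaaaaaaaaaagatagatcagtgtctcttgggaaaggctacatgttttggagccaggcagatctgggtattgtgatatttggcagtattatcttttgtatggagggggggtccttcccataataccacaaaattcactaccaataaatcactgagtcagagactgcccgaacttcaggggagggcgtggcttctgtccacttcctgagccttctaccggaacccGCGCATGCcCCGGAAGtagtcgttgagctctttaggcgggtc
Mrps18a: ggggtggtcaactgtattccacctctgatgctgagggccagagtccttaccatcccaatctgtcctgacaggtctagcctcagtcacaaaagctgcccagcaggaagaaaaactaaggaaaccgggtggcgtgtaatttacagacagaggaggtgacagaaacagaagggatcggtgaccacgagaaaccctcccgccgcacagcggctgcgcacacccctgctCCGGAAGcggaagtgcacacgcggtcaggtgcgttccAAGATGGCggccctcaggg
Mrps11: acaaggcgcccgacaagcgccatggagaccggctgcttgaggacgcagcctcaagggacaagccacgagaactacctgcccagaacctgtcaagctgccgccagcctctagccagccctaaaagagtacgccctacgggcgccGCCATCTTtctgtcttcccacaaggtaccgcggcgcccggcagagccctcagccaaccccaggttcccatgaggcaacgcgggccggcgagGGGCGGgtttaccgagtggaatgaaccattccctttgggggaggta
Mrpl1: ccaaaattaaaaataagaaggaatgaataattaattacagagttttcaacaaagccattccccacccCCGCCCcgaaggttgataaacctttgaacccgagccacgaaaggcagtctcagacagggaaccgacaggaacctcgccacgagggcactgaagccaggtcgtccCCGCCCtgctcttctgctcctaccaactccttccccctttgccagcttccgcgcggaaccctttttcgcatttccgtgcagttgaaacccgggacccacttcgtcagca
The annotated gene record of Mrpl33 begins 17016 bases upstream of this RefSeq start, and a transcript from that distant start would not use the window shown. For Mrpl1 the annotated record begins 622 bases upstream of the RefSeq start, also outside the window shown.

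Many members share their start region with a gene on the opposite strand. A neighbour whose annotated start lies within 1000 bases on the other strand was found for 33 tested members (44%), against 17.2% of all tested genes, and in 15 of these cases the records of both genes overlap at their starts. Of these 33 members 31 fell, while of their 31 tested neighbours 14 fell, 3 rose and 14 were not called, against 32.1% lower and 32.3% higher among all tested genes, with a median log2 fold change of -0.28. Mrps11 and Mrpl46 are each other's neighbours, so both are counted among the members and again among the neighbours that fell, and both enter the neighbours' median. Their records overlap by 412 bases, and they had log2 fold changes of -1.30 and -1.24. They share 7.97% and 12.2% of their exonic bases, so without a known strand setting some reads could belong to either gene. The start of Mrpl36 overlaps by 29 bases that of Ndufs6, a subunit of respiratory complex I, which fell by 2.06 on the log2 scale, and Mrps12 starts 172 bases from Sars2, the mitochondrial seryl-tRNA synthetase (log2 fold changes -1.09 and -0.55). Other pairs parted. Mrpl50 (log2 fold change -0.06, not called) starts 83 bases from Zfp189, a zinc finger gene that rose by 1.07, Mrps5 (-0.31) starts 128 bases from Zfp661, which rose by 0.98, and Mrpl44 (-0.73) overlaps by 125 bases with Wdfy1, which rose by 0.67. These pairs were picked after their values were seen.

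The genes that build and feed the mitochondrial ribosome were taken from lists drawn up with earlier results of these data known, and their counts stand beside the 32.1% of all tested genes that fell and the 32.3% that rose. Of 5 mitoribosomal proteins under other symbols 4 fell and Ptcd3 was not called (log2 fold change 0.26), with a median of -0.96. Chchd1, a small-subunit protein, averaged 29.1 ± 2.31 CPM in overexpression libraries and 64.8 ± 14.9 CPM in controls (log2 fold change -1.15), and Aurkaip1, another one, averaged 42.3 ± 1.69 CPM in overexpression libraries and 89.5 ± 25.2 CPM in controls (log2 fold change -1.08; SD, n = 4 each). Of 24 tested genes for assembly and rRNA modification 14 fell and 2 rose (Nsun4 and Mettl17), with a median of -0.46, against 68 of 75 for the ribosomal proteins. Rcc1l, an assembly factor, averaged 20.3 ± 2.02 CPM in overexpression libraries and 45.4 ± 7.75 CPM in controls (log2 fold change -1.16), and Mtg1, an assembly GTPase, had a log2 fold change of -1.07. With the mRNA length trend removed, which left 30.8% of all tested genes lower and 28.7% higher, 3 of the 5 proteins under other symbols fell (median -0.45), and 9 of the 24 assembly genes fell and 2 rose (median -0.21).

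Genes listed as mitochondrial translation factors moved in both directions. The list was broad and includes Lrpprc and Oxa1l, of which Oxa1l is among those that fell. Of 14 tested translation factors 6 fell and 2 rose (Mtif2 and Guf1), against 32.1% and 32.3% of all tested genes, with a median log2 fold change of -0.11. Mtif2, the initiation factor that brings the initiator tRNA, had 65.7, 63.2, 68.9 and 67.3 CPM in overexpression libraries and 22.5, 18.3, 41.1 and 19.6 CPM in controls (log2 fold change 1.38, SE 0.22, edgeR adjusted p = 1.38e-04), with control library 3 the highest control. Tsfm, the exchange factor of the elongation factor Tufm, averaged 26.6 ± 2.40 CPM in overexpression libraries and 54.5 ± 12.5 CPM in controls (SD, n = 4 each; log2 fold change -1.03). Of 20 genes listed as aminoacyl-tRNA synthetases 11 fell and 3 rose (Hars2, Lars2 and Wars2), with a median of -0.40. That list was broad too. It includes Qrsl1, Gatb and Gatc, subunits of an amidotransferase rather than synthetases, of which Qrsl1 and Gatb are among those that fell. Cars2 had a log2 fold change of -0.98 and Yars2 of -0.77. Of 12 genes for transcription and upkeep of the mitochondrial genome 3 fell and none rose, with a median of -0.15. Those that fell were Mgme1, a nuclease of mitochondrial DNA (-0.89), Top1mt, the mitochondrial topoisomerase (-0.69), and Polg, the DNA polymerase. That share, 25%, lay below the 32.1% of all tested genes. Top1mt was not called with the length trend removed (-0.29, adjusted p = 0.0965) or with length and GC trends removed (-0.10, adjusted p = 0.616). It was still called lower with the mRNA length trend removed (-0.41, edgeR adjusted p = 0.0199). With the mRNA length trend removed, 3 genes of the translation factor list fell and 3 rose (median -0.21). Of the synthetase list 11 then fell and 4 rose (median -0.38), and 5 genes of transcription and upkeep fell and 1 rose (median -0.15). Among all tested genes 30.8% were then lower and 28.7% higher.

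Of 12 tested regulators of nuclear genes for mitochondrial proteins 3 fell (Esrra, Myc and Pprc1) and 5 rose (Creb1, Sp1, Gabpa, Yy1 and Gabpb1), against 32.1% and 32.3% of all tested genes, with a median log2 fold change of 0.06. With the mRNA length trend removed 5 fell and 4 rose, against 30.8% and 28.7%, and the median was -0.22. Creb1, which binds the CRE, had 89.9, 93.7, 92.9 and 95.5 CPM in overexpression libraries and 35.8, 37.2, 66.3 and 37.1 CPM in controls (log2 fold change 1.07, edgeR adjusted p = 2.34e-04). Yy1 had 194, 188, 183 and 184 CPM in overexpression libraries and 123, 124, 145 and 122 CPM in controls (log2 fold change 0.54, edgeR adjusted p = 5.12e-04). In both genes control library 3 was the highest control, and it still lay below every overexpression library. With the mRNA length trend removed, Yy1 had a log2 fold change of 0.09 and was not called (adjusted p = 0.354), and Chchd1 had -0.18 (adjusted p = 0.162). Both kept their calls with the trend on exon length removed, Yy1 at 0.33 (edgeR adjusted p = 0.00365) and Chchd1 at -0.33 (edgeR adjusted p = 0.0216).

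**Figure D5:**
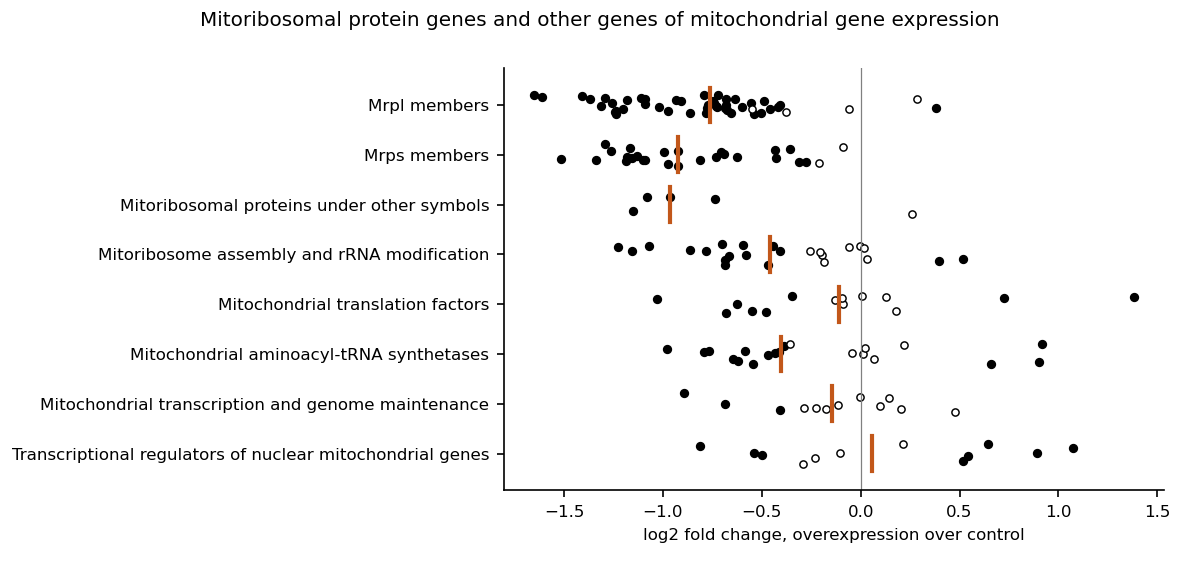
Log2 fold change (overexpression over control) of each tested gene in the Mrpl and Mrps groups and in 6 lists of other genes of mitochondrial gene expression; filled points passed the test, open points did not, and the vertical bar is the list's median. The medians run from -0.96 for mitoribosomal proteins under other symbols to 0.06 for the regulators, with Mrpl at -0.76 and Mrps at -0.92.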

How the data were processed

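The data are RNA-seq of 8 AML-12 libraries. The authors deposited unnormalized whole-number counts for each gene symbol. STAR, HTSeq and FastQC with the mm10 build are named in the submitters' processing notes, while tool versions, strand setting and annotation are not given in the sources. Per the labels' protocols, RNA was isolated with Trizol and libraries were made with an NEBNext Ultra kit.

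The analysis used edgeR 4.0.16 under R 4.3.3. The filterByExpr filter, at its minimum count of 10, retained 11520 of the 16281 genes that had any count. Trimmed-mean factors set the library scaling. A two-sided quasi-likelihood test compared overexpression with control without further terms, p-values were adjusted over all tested genes by the Benjamini-Hochberg method, and 0.05 was the threshold. The common biological coefficient of variation was 0.15. CPM use the scaled library sizes, and standard errors were taken as log2 fold change divided by the root of F. Coordinates, mRNA lengths and overlaps come from GENCODE M21 (GRCm38, also called mm10); all 78 members matched by symbol. Length and GC trends were removed as offsets by lowess with a span of 0.3. No pair of libraries in a group matched within counting noise (chi-square per gene 2.41 to 102).

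The members and lists were chosen with earlier results of these data known. Named members were the 6 Mrpl and 6 Mrps called lower with the smallest adjusted p, up to 3 of each called higher, the 2 of each nearest a log2 fold change of 0, the highest and lowest per length, those with a separate role, those that failed the filter, and 2 called genes of each list; others are marked where named. Of the assembly list 25 of 28 symbols were in the table, and of the translation factors 15 of 17; some were listed under 2 symbols. Alternatives, 20 in all, were other scalings and filters, trend corrections, DESeq2 1.42.0, limma-voom (limma 3.58.1), a replicate block, and the fit without each library in turn. Figures were drawn with matplotlib 3.10.9.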

Additional observations from a re-analysis of the deposited data

Results flagged for a closer look

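Each group of 4 values of the 37 named genes tested, of the family's share of counts and of the Mrpl to Mrps ratio was examined for a library that stood apart by more than the critical value of Dixon's test for 4 values, and 2 of 78 groups did so, where chance flags about 1 in 20. Creb1 stood at 66.3 CPM in control library 3, with the other controls between 35.8 and 37.2 CPM. Yy1 stood at 145 CPM in the same library, with the other controls between 122 and 124 CPM. No mitochondrial ribosomal protein gene among those named had such a library.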

How the results depend on the processing

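Over the 20 alternatives, 701 of the values of the 37 named genes kept their direction and side of the threshold, 12 passed it in the alternative alone, 22 no longer passed it and 5 reversed. The reversed log2 fold changes were -0.019 for Mrpl1 with the GC trend removed, 0.11 for Mrpl34 with length and GC trends removed, 0.10 for Mrps18c with the length trend removed, and 0.17 for Mrps18c and 0.47 for Mrps22 with the mRNA length trend removed. The cause was not tested. Medians for Mrpl and Mrps genes were -0.41 and -0.48 with length and GC trends removed, -0.46 and -0.51 with the length trend removed, and -0.30 and -0.38 with the mRNA length trend removed; with the GC trend alone removed their order turned, at -0.82 and -0.80. The number of members called higher was 3 with length and GC trends or the mRNA length trend removed, 2 with the length trend removed, with library totals alone and with limma-voom, 0 with no count filter, and 0 to 1 with a library left out. Members called lower numbered 65 to 69 with a library left out (Mrpl 42 to 44, Mrps 23 to 25), while 6659 to 9001 genes were called in all; the medians then were -0.91 to -0.68 for Mrpl and -1.05 to -0.84 for Mrps genes. Scaling by library totals alone moved the median of all genes by 0.128 and called 4305 genes higher and 3070 lower, against 3720 and 3697, with 63 members lower. In all, 36 members were called lower in every alternative and 63 in every alternative without a length correction. The matching shares of all tested genes were not worked out. They can be no more than the 26.6% that were lower with library totals alone. Same-numbered libraries did not deviate together (correlations -0.119 to 0.0227), and the labels state no pairing. These correlations cannot exclude a culture or day in common, since control library 3 weighs heavily in the deviations of the controls. With a replicate block 66 members were called lower, 43 Mrpl and 23 Mrps, and 7129 genes in all.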

Other observations

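Other nuclear genes of ribosomes and of the respiratory chain were lower in overexpression libraries as well. Of 81 tested cytosolic ribosomal protein genes 68 fell and 2 rose (Rpl3 and Rpl5), against 32.1% and 32.3% of all tested genes, with a median log2 fold change of -1.0, and they took 1.78 ± 0.0218% of counts in overexpression libraries and 3.52 ± 0.612% in controls (SD, n = 4 each). Of 35 tested Nduf genes, which encode respiratory complex I, 32 fell and 1 rose (Ndufb2), with a median of -1.06. Of 12 tested protein genes of the mitochondrial genome, whose mRNAs the mitochondrial ribosome reads, 6 fell and 2 rose (mt-Atp6 and mt-Nd4l), with a median of -0.35. With the mRNA length trend removed the medians were -0.24 for cytosolic ribosomal protein genes, -0.41 for Nduf genes and 0.27 for the mitochondrial genome. Then 38, 24 and 2 genes were lower and 13, 4 and 5 higher, against 30.8% and 28.7% of all tested genes. The median of the mitochondrial genome thus turned with that correction. With the GC trend removed it was -0.76 instead, with 8 genes lower and none higher, against 35.6% and 35.8% of all tested genes. Its direction therefore depended on which trend was removed. These sets were added after seeing the data.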
